A study of Arabidopsis thaliana with 6 samples.

Results

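The genes described here write, maintain or remove cytosine methylation in the DNA of Arabidopsis thaliana. They are the de novo methyltransferase genes DRM1 (AT5G15380) and DRM2 (AT5G14620), the maintenance methyltransferase genes MET1 (AT5G49160), CMT3 (AT1G69770) and CMT2 (AT4G19020), the chromatin remodeller gene DDM1 (AT5G66750), and the demethylase genes ROS1 (AT2G36490), DME (AT5G04560), DML2 (AT3G10010) and DML3 (AT4G34060). They were chosen by locus, and array probes were assigned to them through the accession that each probe carries. All 10 had a probe and entered the tests, among 20171 loci tested and 25388 loci with a usable probe. ROS1 and DME had 2 probes each and the other members 1 each, which gave 12 probes. DRM1, DRM2, MET1, DME and DDM1 lie on chromosome 5, CMT2 and DML3 on chromosome 4, CMT3 on chromosome 1, ROS1 on chromosome 2 and DML2 on chromosome 3, in the TAIR10.1 gene table.

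Whole seedlings of 3 lines were compared, with 1 single-colour array for each line and treatment and 6 arrays in all. The lines were ago2a and ago2c, which carry mutations in the gene of the small RNA-binding protein ARGONAUTE2 (AGO2), and the Columbia-0 wild type (WT). The nature of the 2 mutations is not given in the labels. Seedlings aged 14 days were exposed for 4 hours to gamma rays (50 Gy per hour, 200 Gy in total) and harvested 24 hours later, or they were mock treated. RNA of 3 independent batches of seedlings was pooled for each array, so each condition has a single array and the lines stood in for replicates in the tests. The p-values therefore measure the spread between these pooled samples.

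In plants cytosines are methylated in the CG, CHG and CHH contexts, where H is any base but G. DRM2 sets new methylation in all contexts where small RNAs and the plant-specific RNA polymerases IV and V guide it, and DRM1 is its close relative. MET1 copies CG methylation after replication, CMT3 and CMT2 keep CHG and CHH methylation at chromatin with histone H3 lysine 9 methylation, and DDM1 opens nucleosomal DNA to these enzymes. ROS1, DME, DML2 and DML3 are DNA glycosylases that cut out methylated cytosine, DME chiefly in the companion cells of the gametes and the others in vegetative tissue.

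AGO2 was well above background on both WT arrays and on none of the 4 ago2 arrays. Between 70.5% and 73.4% of the probes were well above background on an array, 0 were saturated, and precision is limited by there being 6 arrays. Signals below are processed spot intensities as a percentage of the 75th percentile of their array, so that they compare arrays for 1 probe and do not rank genes by level. Where a locus had several probes, their ratios to each other divided the arrays into 2 groups. Array group 1 held ago2a mock and both WT arrays, and array group 2 held ago2a irradiated and both ago2c arrays, so that for ago2a alone the array group changed with treatment. The WT and ago2a arrays lay on slide 1 and the ago2c arrays on slide 2.

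The first comparison asked which of these transcripts differed between irradiated and mock seedlings. DRM1 was the member that passed the test, with signal above background after irradiation and none distinguishable from background in mock seedlings of any line. It entered the test through its irradiated arrays alone, and a locus that enters in this way had to differ between the treatments. With no filter on dim probes it did not pass (limma adjusted p = 0.077). The signals of MET1, CMT3 and DDM1 were also higher in the irradiated seedlings of all 3 lines, by 0.55 to 0.58 on the log2 scale in the fit, without passing the test across all loci. DRM2, CMT2 and the 4 demethylase genes had fitted differences whose 95% intervals included 0. In whole seedlings a change in the number of cells of a type and a change in RNA per cell cannot be told apart. By limma with Benjamini-Hochberg adjustment over all loci, 1 of the 10 members was called higher, where 0.223% of all loci tested were, and 0 were called lower, where 0.0149% of all loci were. The called member is DRM1, so nothing is read from that count against the share of all loci. At an unadjusted p under 0.05, 4 members were higher and none was lower, against 5.68% and 8.21% of all loci. The same 4 members (DRM1, MET1, CMT3 and DDM1) had a fitted difference of at least 0.5 on the log2 scale, as had 2.97% of all loci. Both counts of 4 members include DRM1, and nothing is read from its part in them. The median difference over the members was 0.21 on the log2 scale and that over all loci 0.014.

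**Figure D1:**
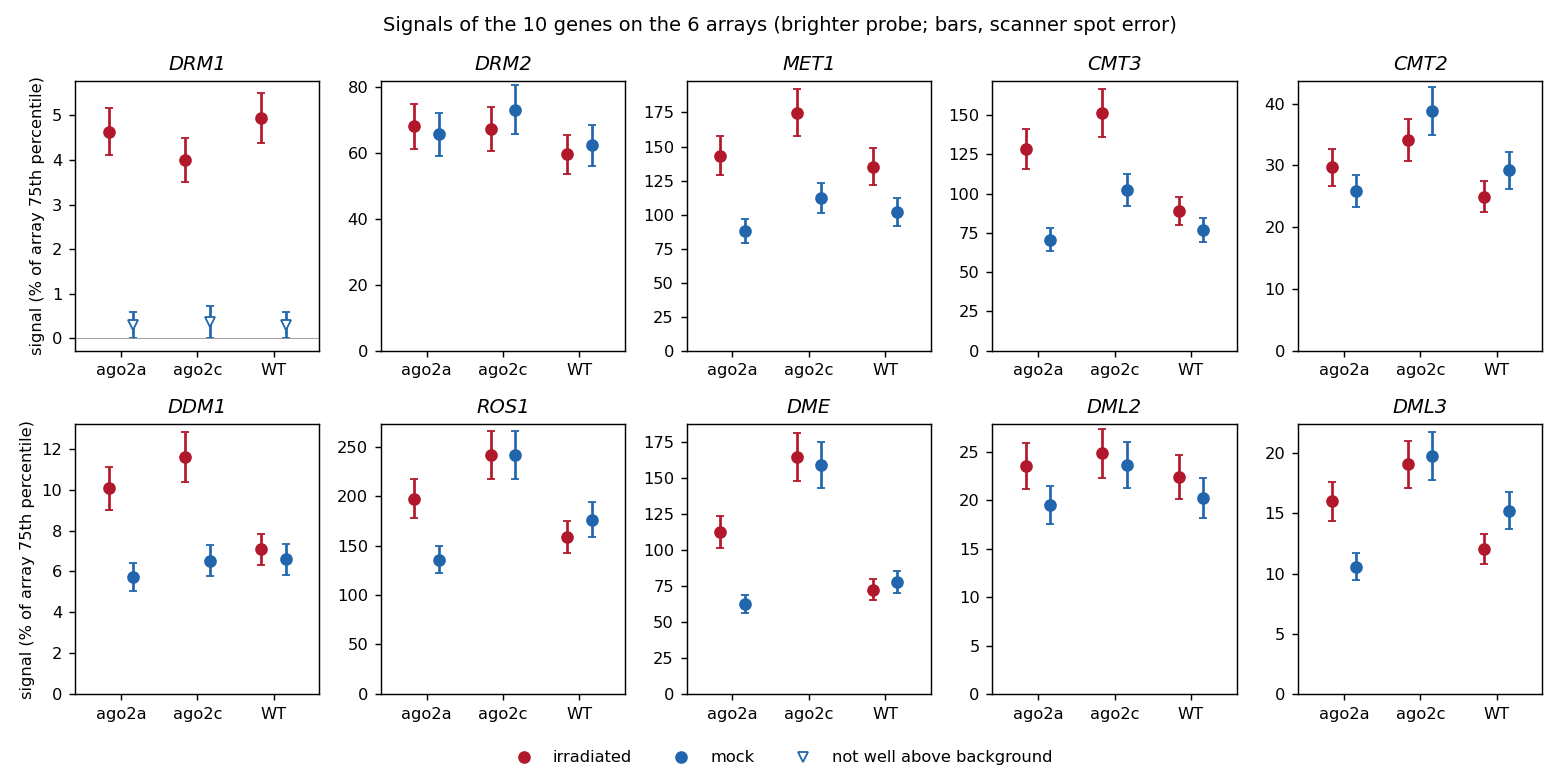
Scaled signal of the brighter probe of each of the 10 genes on the 6 arrays, in percent of the 75th percentile of the array on linear axes, with 1 point per array, irradiated left of mock in each line, and bars for the spot error given by the scanner software. Open triangles mark signals not well above background, which are those of DRM1 on the 3 mock arrays, while DRM2 stays between 59.5% and 73.1%.

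DRM1 had scaled signals of 4.64%, 4.00% and 4.94% in irradiated ago2a, ago2c and WT seedlings, against 0.293%, 0.360% and 0.302% in mock ago2a, ago2c and WT seedlings. The 3 irradiated arrays lay close together and far above the 3 mock arrays, with no overlap. The probe was well above background on each irradiated array and on no mock array. Before scaling, the processed intensity was 78.2, 54.9 and 107 in the irradiated ago2a, ago2c and WT arrays, and 6.85, 5.10 and 6.54 in their mock arrays. The scanner software gave an error of 6.82, 5.08 and 6.53 for the 3 mock intensities, so each of them was about as large as its own error. The mock level is thus known only as an upper limit.

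Taking for each mock array the dimmest signal that was still well above background, DRM1 was at least 3.32-fold higher after irradiation in ago2a, at least 2.32-fold in ago2c and at least 3.59-fold in WT. Over the 3 lines together DRM1 rose at least 3.02-fold. The fitted log2 difference was 3.83 ± 0.15 (SE, n = 3 lines; limma adjusted p = 0.017), higher in 3 of 3 lines. That fitted value uses the dim mock signals as given by the scanner software and is no bound, and its SE and p rest on the same signals. The spot error of the difference was 1.45 (log2) in each line. The SE of 0.15 does not contain that error, so neither it nor the p gives the precision of the DRM1 difference. With the array group as a block the difference was 3.82 (limma adjusted p = 0.0030), from the same dim mock signals, so this smaller p adds no separate support. The call was lost without ago2a, where no locus of the 20171 passed (log2 3.75, limma adjusted p = 0.25), under normexp background correction (1.21, limma adjusted p = 0.12) and with no filter on dim probes (3.83, limma adjusted p = 0.077).

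DRM2, the main de novo methyltransferase of vegetative tissue, had scaled signals of 68.1% in irradiated and 65.6% in mock ago2a seedlings, 67.2% and 73.1% in irradiated and mock ago2c seedlings, and 59.5% and 62.2% in irradiated and mock WT seedlings. Irradiated and mock arrays overlapped, and the sign of the difference was not the same in all lines. The fitted difference was -0.04 ± 0.09 on the log2 scale (95% interval -0.30 to 0.21, n = 3 lines; limma adjusted p = 0.84). The difference between the 2 DRM genes was not itself tested.

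MET1, the CG maintenance enzyme, had scaled signals of 143% in irradiated and 88.3% in mock ago2a seedlings, 175% and 112% in irradiated and mock ago2c seedlings, and 135% and 102% in irradiated and mock WT seedlings. Every irradiated array lay above every mock array. The fitted log2 difference was 0.58 ± 0.11 (95% interval 0.30 to 0.87, n = 3 lines; unadjusted p = 0.0045, limma adjusted p = 0.17). The lines gave 0.70 (ago2a), 0.64 (ago2c) and 0.41 (WT).

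CMT3, the CHG methyltransferase, had scaled signals of 128% in irradiated and 70.8% in mock ago2a seedlings, 151% and 102% in irradiated and mock ago2c seedlings, and 89.3% and 76.7% in irradiated and mock WT seedlings. Irradiated WT lay below mock ago2c, so the treatments overlapped although each line was higher after irradiation. The log2 difference was 0.86 in ago2a, 0.56 in ago2c and 0.22 in WT, and the fit gave 0.55 ± 0.15 (95% interval 0.13 to 0.96, n = 3 lines; unadjusted p = 0.022, limma adjusted p = 0.29). CMT2, the CHH methyltransferase of heterochromatin, had 29.7%, 34.1% and 24.9% in irradiated ago2a, ago2c and WT seedlings, against 25.9%, 38.8% and 29.2% in mock ago2a, ago2c and WT seedlings. It was higher after irradiation in ago2a and lower in the other lines (-0.07 ± 0.13; 95% interval -0.42 to 0.27; limma adjusted p = 0.81).

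DDM1 had scaled signals of 10.1% in irradiated and 5.73% in mock ago2a seedlings, 11.6% and 6.53% in irradiated and mock ago2c seedlings, and 7.08% and 6.60% in irradiated and mock WT seedlings. The irradiated ago2 arrays stood well above all others, while the irradiated WT array lay only just above the highest mock array. In single lines the log2 difference was 0.82 (ago2a), 0.83 (ago2c) and 0.10 (WT). The fit gave 0.58 ± 0.19 (95% interval 0.07 to 1.09, n = 3 lines; unadjusted p = 0.033, limma adjusted p = 0.32), and 0.30 under normexp background correction.

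Groups did not overlap for DRM1, MET1 and DDM1, which is 3 of 10 members higher after irradiation, against 8.07% of all loci, and no member was lower in this way (7.3% of all loci). With DML2 and CMT3, 5 of 10 members were higher in 3 of 3 lines, against 21.4% of all loci, and none was lower in 3 of 3 lines, against 18.0%. In each of the 3 lines DRM1 alone among the 10 members was at least 2-fold higher, where 1.39% of all loci were at least 2-fold higher in ago2a, 1.27% in ago2c and 1.27% in WT. No member was at least 2-fold lower in a line, against 7.39% of all loci in ago2a, 5.5% in ago2c and 1.57% in WT. DRM1, which entered the test through its irradiated arrays alone, is in each count of higher members. Nothing is read from its part in these counts.

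**Figure D2:**
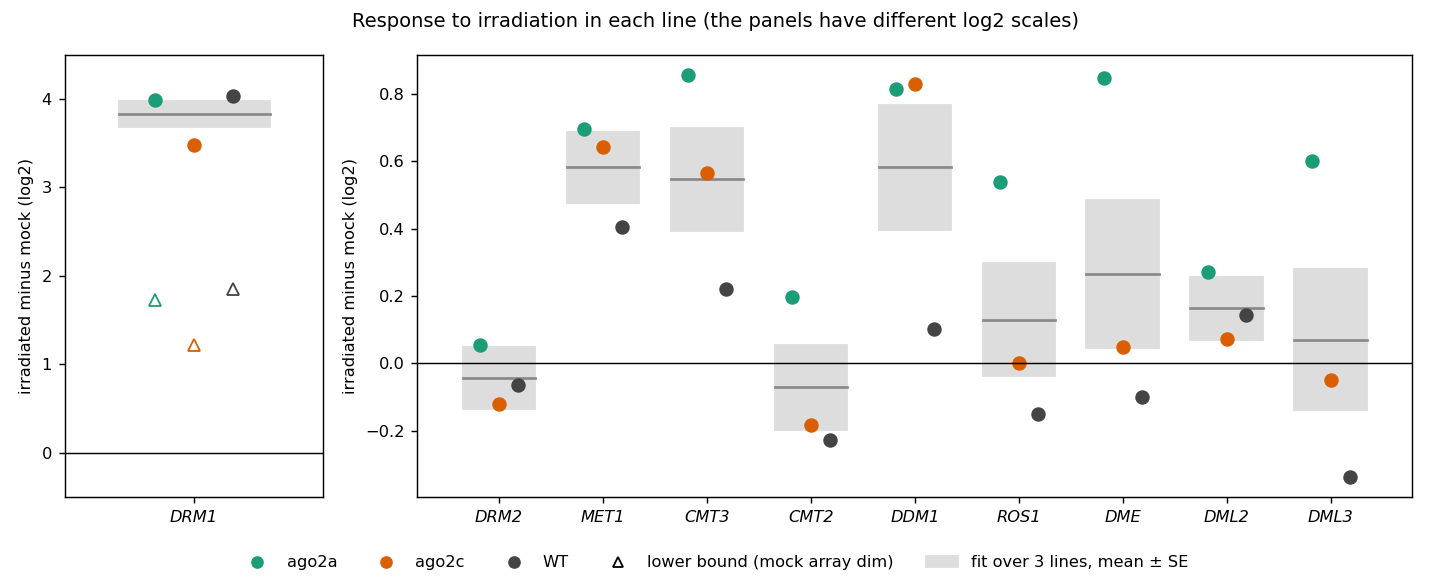
Log2 difference between irradiated and mock seedlings for each gene (brighter probe), with 1 point per line and a grey box for the limma value ± SE over the 3 lines; DRM1 has a panel and scale of its own, where open triangles are lower bounds. MET1, CMT3 and DDM1 have fitted values between 0.55 and 0.58, and the ago2a point is the highest for 8 of the 10 genes, all but DRM1 and DDM1.

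Replication genes also had higher values. Of all 20171 loci tested, 10702 had a positive and 9469 a negative fitted difference. All 14 listed genes of DNA replication and S phase had a positive fitted difference, with a median of 0.60 (log2), and 1 passed the test. In single lines their median was 0.68 in ago2a, 0.68 in ago2c and 0.43 in WT. TSO2, a small subunit of ribonucleotide reductase, rose (2.52 ± 0.11, limma adjusted p = 0.019), with the call lost without ago2a (2.42, adjusted p = 0.25), without ago2c (2.53, adjusted p = 0.052) and with no filter (2.52, adjusted p = 0.077). In the same fit RNR1, the large subunit, and PCNA1, the sliding clamp, had 1.36 ± 0.11 and 0.84 ± 0.11 without passing (limma adjusted p = 0.070 and 0.13). The part of the S-phase genes in the values of MET1, CMT3 and DDM1 was not tested.

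Of the 10 listed root markers, 8 had a negative fitted difference and none passed the test. Their median was -1.02 in ago2a, -1.51 in ago2c and -0.05 in WT. Their summed scaled signal was 4116% and 2490% in irradiated ago2a and ago2c seedlings and 7270% in irradiated WT seedlings, against 6401%, 4506% and 5152% in mock ago2a, ago2c and WT seedlings. Most of these sums was the signal of PYK10, a beta-glucosidase gene, and without it they were 267% and 226% in irradiated ago2a and ago2c and 419% in irradiated WT seedlings, against 457%, 376% and 431% in mock ago2a, ago2c and WT seedlings. None of the 10 was at 0, and 9 were well above background on each array, though not the same 9. PLT1 was well above background on the mock arrays alone and WOX5 on the irradiated arrays alone. PLT1 thus entered the test through its mock arrays alone, which favours a lower value after irradiation. It is among the 8 negative values and in the medians, and nothing is read from its part in them. PLT1 had 0.95%, 0.29% and 1.16% in irradiated ago2a, ago2c and WT seedlings, against 2.83%, 2.22% and 2.70% in mock seedlings of these lines. WOX5 lay between 1.01% and 1.54% on all arrays. The 7 measured shoot and leaf markers of 8 had a median of 0.15, with 5 positive and 2 negative values, the lowest -0.59 for LHCB2.1. Their sums were 79933%, 99069% and 68168% in irradiated ago2a, ago2c and WT seedlings. In mock seedlings of these lines the sums were 61958%, 89529% and 69818%. The part of these markers in the values of the methylation genes was not tested.

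The demethylase genes gave no call. The ago2a response was the highest of the 3 lines for each of them, as it was for 8 of the 10 members. Over all loci the median response was also highest in ago2a, at 0.059, against 0.0075 in ago2c and -0.013 in WT. The share of all loci with their highest response in ago2a was not counted, and the difference of ago2a from the other lines was not tested. ROS1, the main demethylase of vegetative tissue, had scaled signals on its brighter probe of 197% in irradiated and 136% in mock ago2a seedlings, 241% in both irradiated and mock ago2c seedlings, and 159% and 176% in irradiated and mock WT seedlings. On this probe the difference was 0.54 in ago2a, 0.00 in ago2c and -0.15 in WT (log2). The other probe read 34.0% and 42.0% in irradiated and mock ago2a seedlings, 37.2% and 35.8% in ago2c seedlings, and 47.0% and 50.1% in WT seedlings, again with irradiated before mock. There the differences were -0.31, 0.06 and -0.09, so the 2 probes took opposite signs in ago2a. The fit on the brighter probe gave 0.13 ± 0.17 (95% interval -0.33 to 0.59; limma adjusted p = 0.73).

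DME had scaled signals on its brighter probe of 112% in irradiated and 62.5% in mock ago2a seedlings, 165% and 160% in irradiated and mock ago2c seedlings, and 72.5% and 77.7% in irradiated and mock WT seedlings. The ago2a value was thus higher after irradiation by 0.85 (log2), with 0.05 in ago2c and -0.10 in WT. The other probe read 39.8% and 25.9% in irradiated and mock ago2a seedlings, 36.8% and 36.4% in ago2c and 28.1% and 28.8% in WT, again with irradiated before mock, which gave 0.62, 0.01 and -0.03. Both probes of DME had their highest difference in ago2a, and the fit on the brighter one gave 0.26 ± 0.22 (95% interval -0.34 to 0.87; limma adjusted p = 0.61).

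DML3, a demethylase active in vegetative tissue, had 16.0%, 19.1% and 12.1% in irradiated ago2a, ago2c and WT seedlings, against 10.6%, 19.8% and 15.2% in mock ago2a, ago2c and WT seedlings. It was higher after irradiation in ago2a by 0.60 (log2) and lower in the other lines, by values of -0.05 in ago2c and -0.34 in WT. DML2, its relative, had 23.6%, 24.9% and 22.4% in irradiated ago2a, ago2c and WT seedlings, against 19.5%, 23.7% and 20.3% in mock seedlings of these lines. Its differences were 0.27, 0.07 and 0.14, and the fit gave 0.16 ± 0.09 (95% interval -0.09 to 0.42; limma adjusted p = 0.49). For DML3 the fit gave 0.07 ± 0.21 (95% interval -0.50 to 0.64; limma adjusted p = 0.89).

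In ago2a the array group changed together with the treatment, so that in this line array group and treatment cannot be told apart, and the part of the array group in the values was not tested. The brighter probes of 7 of 10 (DRM2, CMT3, CMT2, ROS1, DME, DML2 and DML3) were higher on every array of group 2 than on every array of group 1, against 30.0% of all loci, and those of none were lower, against 18.9%. The log2 difference between the array groups was 1.02 on the brighter and 0.45 on the other probe of DME. For ROS1 it was 0.53 on the brighter and -0.38 on the other probe, where all 3 arrays of group 2 were below all 3 of group 1. Over 5615 loci with several bright probes, the other probes moved against the brightest by a median of 0.39 (log2, absolute), and ROS1 at -0.91 lay at percentile 83.2 and DME at -0.57 at percentile 64.4 by size. Without ago2a the irradiation value of DME was -0.027, that of ROS1 -0.075 and that of DML3 -0.19, and with the array group as a block the values were -0.086, -0.054 and -0.13. Under the same block MET1 had 0.50, CMT3 0.36 and DDM1 0.47, and none of them passed the limma test (adjusted p = 0.17, 0.22 and 0.27). Where each probe lies in its transcript was not analysed here.

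**Figure D3:**
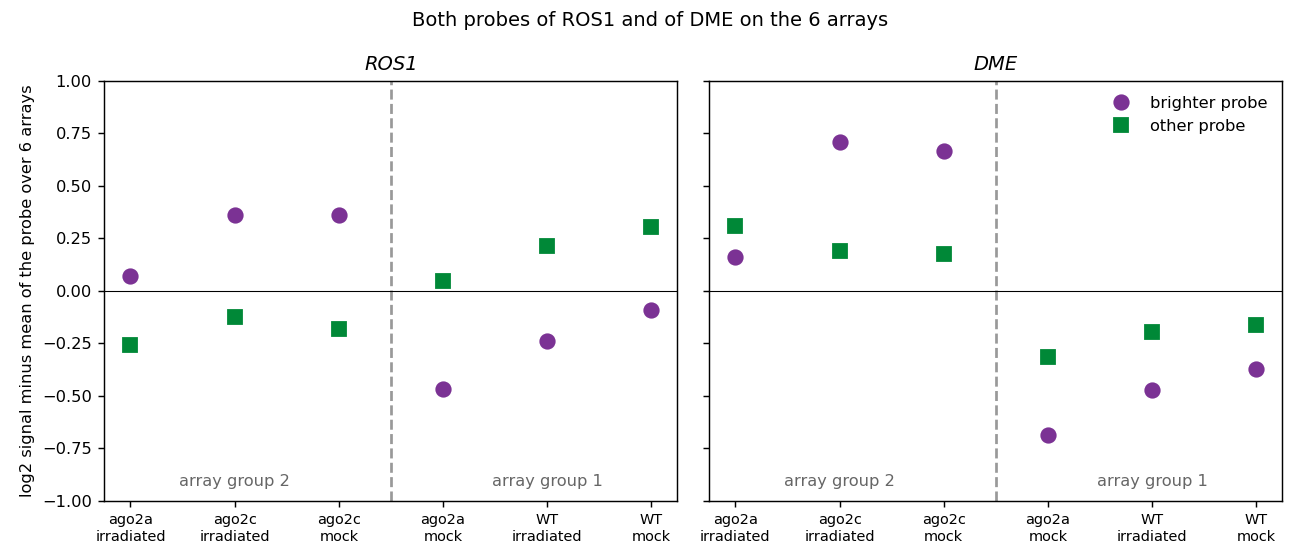
Log2 signal of the brighter probe (circles) and the other probe (squares) of ROS1 and DME on each array, minus the mean of that probe over the 6 arrays, with array group 2 left and array group 1 right of the dashed line. The probes of ROS1 lie on opposite sides between the array groups (0.53 and -0.38), and both probes of DME are higher in group 2 (1.02 and 0.45).

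The second comparison set the ago2 lines against WT over both treatments. No member passed the limma test in either direction (0 of 10, where 0.0% of all loci were called higher and 0.00496% lower), and none had an unadjusted p under 0.05, against 1.48% of loci higher and 2.42% lower. The smallest unadjusted p was 0.12, for CMT3. The members' median difference was 0.23 and that of all loci 0.030 (log2). With the array group as a block, the difference was 0.063 for DRM2 and below 0 for every other member, down to -0.48 for DML3. The root markers had a median of -0.60 in the fit without that block, with none called, and their part in the members' values was not tested.

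The signs of the pairs behind these values differed between the lines. In mock seedlings ago2a lay below WT for 9 of 10 members, DRM2 being the exception. In irradiated seedlings ago2a lay above WT for 9 of 10 members, all but DRM1. The ago2c line lay above WT for 9 of 10 members in irradiated and for 9 of 10 in mock seedlings, all but DDM1. These mock counts include DRM1, whose mock signals were dim in every line. The shares of all loci with these signs were not counted, so nothing is read from the counts about the members. The ago2a mock array belongs to array group 1 with both WT arrays, and the other ago2 arrays to group 2, and the part of the array group in these values was not tested.

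DME had the largest fitted difference among the members, with log2 values of ago2 minus WT of 0.63 (ago2a) and 1.19 (ago2c) in irradiated and -0.31 (ago2a) and 1.04 (ago2c) in mock seedlings. Its other probe gave 0.50 and 0.39 in irradiated and -0.15 and 0.34 in mock seedlings, with ago2a before ago2c. The 2 probes kept the same signs, and the ago2c values were smaller on the other probe. The limma value was 0.64 ± 0.43 (95% interval -0.48 to 1.75; 4 ago2 arrays against 2 WT arrays; adjusted p = 0.64). It was 1.11 without ago2a, 0.16 without ago2c and -0.35 with the array group as a block.

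CMT3 differed from WT by 0.52 (ago2a) and 0.76 (ago2c) in irradiated and by -0.11 (ago2a) and 0.42 (ago2c) in mock seedlings. Its fitted value was 0.40 ± 0.21 (95% interval -0.16 to 0.95; limma adjusted p = 0.64), with 0.59 without ago2a, 0.20 without ago2c and -0.050 with the array group as a block. DRM2 was the member whose ago2 and WT arrays did not overlap, which is 1 of 10 members higher, against 5.77% of all loci, with none lower, against 5.69%. Its difference was small, at 0.19 and 0.18 in irradiated and 0.08 and 0.23 in mock ago2a and ago2c seedlings (0.17 ± 0.10; limma adjusted p = 0.64). For ROS1 the brighter probe gave 0.25 ± 0.28 (limma adjusted p = 0.71), with pairs between -0.38 and 0.60, while the other probe was below WT in all 4 pairs, between -0.49 and -0.26. DRM1, measured above background after irradiation alone, differed from WT by -0.09 and -0.30 in irradiated ago2a and ago2c seedlings.

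MET1 had a fitted genotype difference of 0.10 ± 0.16, CMT2 of 0.24 ± 0.20 and DDM1 of 0.25 ± 0.20. The demethylase genes DML2 and DML3 had 0.10 ± 0.12 and 0.23 ± 0.31. Limma adjusted p-values of these 5 genes lay between 0.65 and 0.80. The pairs of DML3 were 0.41 and 0.66 in irradiated but -0.53 and 0.38 in mock ago2a and ago2c seedlings, so the ago2 lines fell on both sides of WT.

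**Figure D4:**
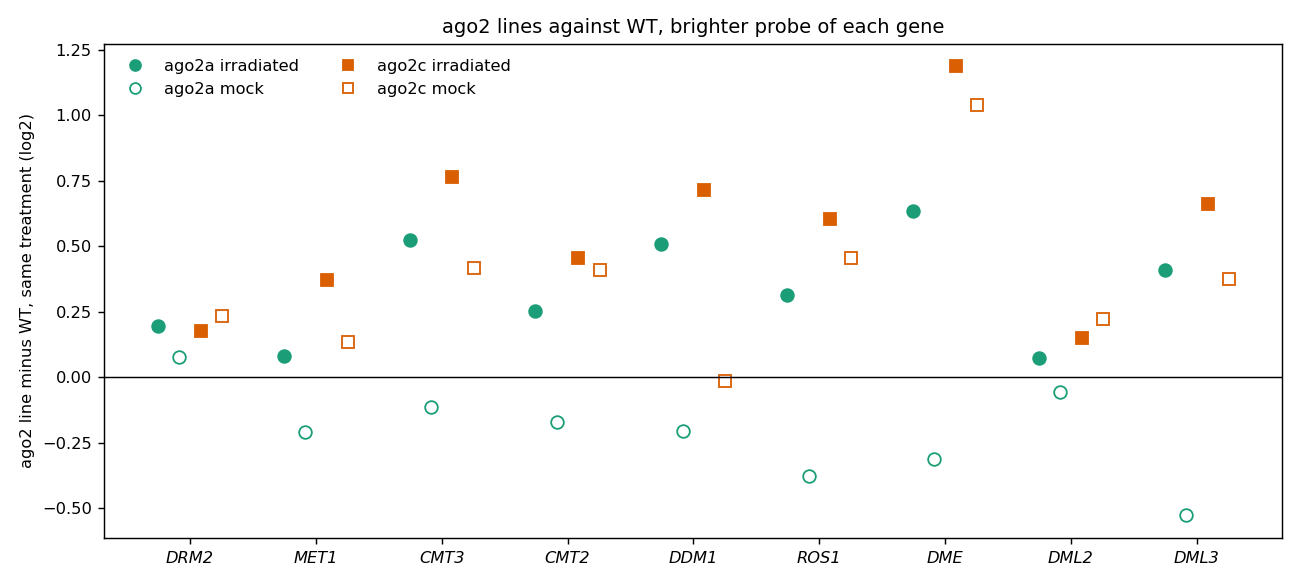
Log2 difference between each ago2 array and the WT array of the same treatment, brighter probe, for the 9 genes well above background on all 6 arrays (filled for irradiated, open for mock). Points of ago2a mock lie below 0 for every gene shown but DRM2, which is the gene with all 4 points above 0.

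The third comparison asked whether the response to radiation differed between the ago2 lines and WT. No member passed (0 of 10, with 0.0% of all loci called higher and 0.0% lower by limma), and 1 member had an unadjusted p under 0.05 and was higher, against 0.902% of all loci higher and 7.92% lower. That member was DDM1, with a mean response of 0.82 (log2) in the ago2 lines and 0.10 in WT. The response difference was 0.72 ± 0.23 (95% interval 0.10 to 1.35; unadjusted p = 0.033, limma adjusted p = 0.44). Under normexp background correction it was 0.39 (limma adjusted p = 0.96). For DDM1 both ago2 lines responded alike in size, at 0.82 in ago2a and 0.83 in ago2c. The fit has 1 residual degree of freedom, which comes from the spread between ago2a and ago2c, and the limma prior from all loci adds 3.17. As the 2 ago2 responses of DDM1 nearly coincide, most of its SE comes from that prior. The S-phase genes also had higher responses in the ago2 lines than in WT, with a median response difference of 0.28. Of these, 13 of 14 were positive, against 11765 of 20171 loci tested. Response differences of the root markers had a median of -1.16. None of either list passed, and their part in the value of DDM1 was not tested.

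CMT3 had a response difference of 0.49 ± 0.26 (95% interval -0.22 to 1.20; limma adjusted p = 0.87) and MET1 of 0.26 ± 0.23 (limma adjusted p = 0.91). DML3, DME and ROS1 had 0.61 ± 0.36, 0.55 ± 0.41 and 0.42 ± 0.32 (limma adjusted p between 0.90 and 0.91), each with the higher ago2 value carried by ago2a. DRM1 had -0.30 ± 0.32 (95% interval -1.17 to 0.56; limma adjusted p = 0.91), with the dim mock arrays in every line. CMT2 had 0.23, DRM2 0.03 and DML2 0.03. The members' median was 0.34 and that of all loci 0.061.

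Other genes of the same pathways were examined to set the members in their surroundings. In the list of RNA-directed DNA methylation, 24 of 25 genes were tested and AGO9 was well above background on no array. CHR31 (AT1G05490), also known as CLASSY3, a chromatin remodeller that recruits RNA polymerase IV, rose with irradiation in all 3 lines. It had scaled signals of 30.1%, 29.7% and 21.8% in irradiated ago2a, ago2c and WT seedlings, against 2.89%, 4.10% and 3.91% in mock ago2a, ago2c and WT seedlings. The irradiated arrays lay far above the mock arrays, and this probe was well above background on all 6.

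The fitted difference of CHR31 was 2.91 ± 0.20 (log2; limma adjusted p = 0.044), which is 7.50-fold, with 3.38 in ago2a, 2.86 in ago2c and 2.48 in WT. The second probe that was well above background on all 6 arrays gave a mean difference of 2.81. Another 2 probes were well above background on 4 and 3 arrays, so part of their mock signals give no measured level. Its ago2 and WT levels differed by 0.14 (limma adjusted p = 0.79). The call was lost while the value stayed close without ago2a (log2 2.67, limma adjusted p = 0.25), without ago2c (2.93, limma adjusted p = 0.078), with no filter on dim probes (2.91, limma adjusted p = 0.15) and with the mean of its probes (3.07, limma adjusted p = 0.066).

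The other 23 tested genes of that list gave no call. Of the 24, 19 had a positive value, against 10702 of 20171 loci tested, and the median was 0.13. MORC6, a GHKL ATPase of gene silencing, had 0.36 ± 0.11, and HEN1, which methylates small RNAs, had 0.26 ± 0.16, without passing. The CLASSY relatives differed from CHR31 in size, with fitted values of 0.10 for CLSY1, -0.19 for CHR42 and 0.25 for CHR40. CHR42 and CHR40 were dim, with scaled signals of 1.6% to 2.1% and 1.8% to 2.8%. The dimmest signals well above background lay between 1.22% and 1.72% on the arrays, so both genes were close to that limit.

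Of the 8 listed genes of CG maintenance and other methyltransferases, CMT1, DMT2, AT4G08990 and MEE57 were well above background on no array and 4 were tested. None passed, all 4 were positive, and the median was 0.56 against 0.014 over all loci. VIM2 and VIM3, which bind hemimethylated DNA and guide MET1 to it, had 0.85 ± 0.15 and 0.75 ± 0.10 (log2; limma adjusted p = 0.16 and 0.13). VIM2 had scaled signals of 33.2%, 43.1% and 25.9% in irradiated ago2a, ago2c and WT seedlings, against 15.5%, 22.5% and 18.0% in mock seedlings of the same lines. Its irradiated and mock arrays did not overlap.

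Among 5 tested genes of the histone H3 lysine 9 pathway none passed. SUVH4, the methyltransferase whose mark CMT3 binds, had 0.46 ± 0.10 (limma adjusted p = 0.22), and SUVH5 had -0.19 ± 0.09. The 9 partners of active demethylation gave no call, with a median of 0.14. AT3G14890 had 0.64 ± 0.11 (limma adjusted p = 0.17) and AT3G48425 had 0.38 ± 0.11. IDM1, a histone acetyltransferase that acts upstream of ROS1, differed by 0.41 between the ago2 lines and WT, and ARP, an AP endonuclease, by -0.54, again without a call. The 9 genes of the methyl donor cycle gave none either, with 4 positive values, a median of -0.0024 and a largest size of -0.22 for SAHH1, which breaks down the by-product of methylation.

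Of 7 loci known to be silenced by methylation or opened by demethylases, FWA, SDC, MEA, FIS2 and PHE1 were well above background on no array. QQS, whose promoter carries methylated repeats, had 0.51 ± 0.10 (limma adjusted p = 0.19), and EPF2, a peptide gene of stomatal patterning, had -0.23 ± 0.17. Of the lists described, those of RNA-directed methylation and of S phase each held 1 called gene and the others held 0 at the adjusted threshold by limma. In the genotype fit no gene of any list was called, and the list medians ran from -0.60 (root markers) to 0.35 (silenced or opened loci).

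**Figure D5:**
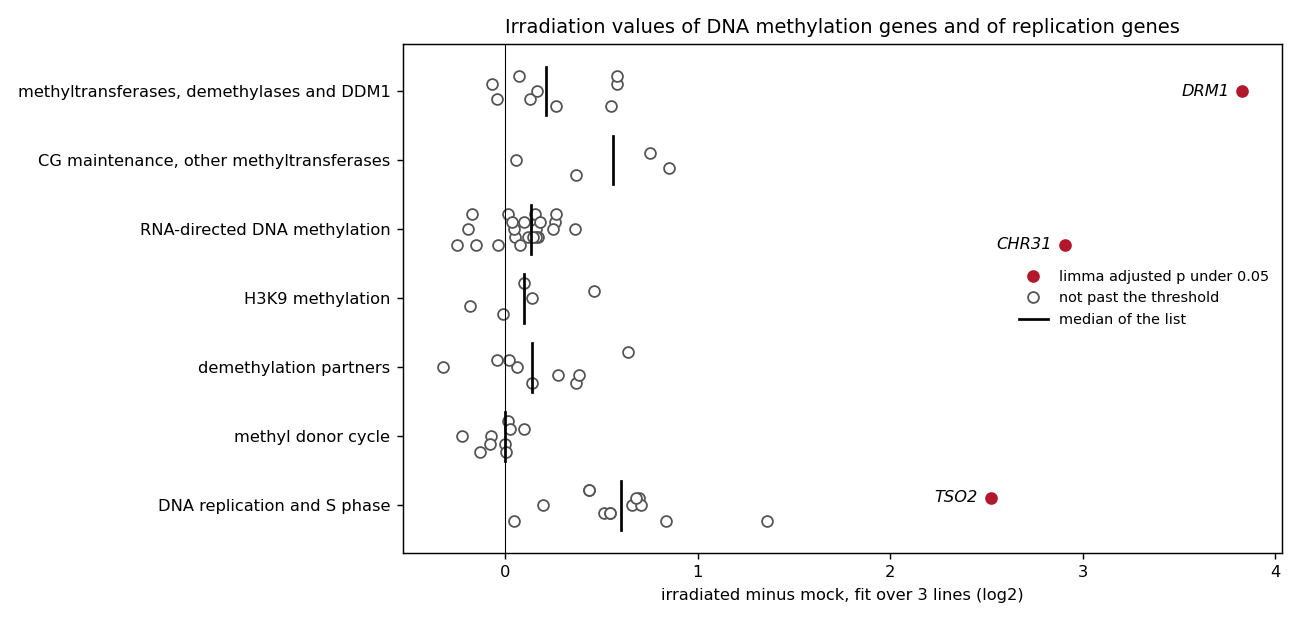
Log2 difference between irradiated and mock seedlings in the limma fit over 3 lines, with 1 point per tested gene of each list, filled where the gene passed the test, and a bar at the median of the list. The S-phase genes (median 0.60) and the CG maintenance genes (median 0.56) lie above 0, and DRM1, CHR31 and TSO2 are the filled points.

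Likeness of pattern was described over the 6 arrays by Pearson correlation of log2 values among 18895 loci that were bright on all arrays. These arrays share lines, treatments, slides and array groups. Closest to DDM1, which had the largest irradiation value among the members bright on all arrays, though level with MET1 at 0.58 and below it under normexp (0.30, against 0.56 for MET1), were MUM4, a rhamnose synthase gene of seed mucilage (r = 0.997), the cold-regulated gene COR15B (0.996) and AT5G16990 (0.996), and 176 loci reached 0.95. Its nearest members were CMT3 (0.94) and MET1 (0.92). Closest to DME, which had the largest genotype value, were UBP1A, an RNA-binding protein gene (0.999), the chlorophyll-binding protein gene CAB1 (0.998) and AT5G12120 (0.998), with 1609 loci at 0.95 or above. Its nearest members were ROS1 (0.98), DML3 (0.94) and CMT2 (0.92). These correlations used the brighter probes of DME and ROS1. The other probe of ROS1 was lower on array group 2 by -0.38 (log2), where both probes of DME were higher. Its correlation with DME was not computed, so the value of 0.98 holds for the brighter probe of ROS1 alone.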

How the data were processed

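Spot intensities were extracted from single-colour (Cy3) Agilent arrays with Feature Extraction 11.0.1.1, and the deposited intensity used here was the background-corrected processed signal, per the file headers. The deposited value table holds a linear ratio by the authors, with medians from 0.878 to 1.06 and an unstated scale per probe, and served as an alternative.

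Spots with outlier flags were left out, which removed 53 of 43603 probes. Probes were named by accession through a TAIR10.1 gene table (34348 matched, 9255 not). Values were log2 signals minus the 75th percentile of their array. A probe entered when well above background on at least 2 of 6 arrays, and the brightest probe stood for its locus. Limma 3.58.1 (R 4.3.3; lmFit and eBayes with Benjamini-Hochberg adjustment, threshold 0.05) gave 3 models: irradiation with line as a block, genotype with treatment as a term, and their interaction. Residual degrees of freedom were 2, 3 and 1, and those of the limma variance prior 2.2, 1.89 and 3.17. The code was tested on simulated data. For a bound, a dim array was given the dimmest signal that was well above background there, or the probe's own if higher.

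The members and lists were chosen with earlier results of these data known. Beside the members, the genes named were the called genes of each list, up to 2 others with the largest size in the irradiation and in the genotype fit, and the 3 loci most like DDM1 and DME. CLSY1, CHR42 and CHR40 were named after their values were seen. Alternatives were normexp (offset 50), the authors' values, scaling by quantiles or the median, other filters, probe rules, blocks and priors, mock arrays alone, and leaving out each line. Promoter motifs were not analysed here.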

Additional observations from a re-analysis of the deposited data

How the results depend on the processing

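Of the members DRM1 alone passed the threshold for irradiation, and the count was 0 under normexp, with no filter, with probes well above background on 6 arrays (where DRM1 was not tested) and without ago2a, and ran from 0 to 1 when single lines were left out. Counts for genotype and for the response difference were 0 under every alternative run. The response difference was not run with a line left out, since no residual degree of freedom remains. Without the line as a replicate block, DRM1 had a limma adjusted p of 0.00063, from the same dim mock signals, and the count was 1. The irradiation fit pairs the arrays of a line, and the genotype fit cannot, since lines lie within genotype. Of the members' values under alternatives, 126 of the irradiation fit, 117 of the genotype fit and 89 of the response difference kept direction and side of the threshold. Signs turned for 12, 24 and 2 values of these fits, and 3 values of the irradiation fit, all of DRM1, lost the call. Since DRM1 alone was called in the main setting, the side kept was mostly that of no call. Median scaling moved the median of all loci to 0.10, 0.14 and 0.20 in the 3 fits, against 0.014, 0.030 and 0.061.

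Signs turned as follows, on the log2 scale. Irradiation: DRM2 0.043 (median scaling) and 0.044 (authors' values), CMT2 0.016 under both and 0.0067 without WT, ROS1 -0.11 (other probe), -0.075 (without ago2a) and -0.054 (array group as block), DME -0.027 (without ago2a) and -0.086 (array group), DML3 -0.19 (without ago2a) and -0.13 (array group). Genotype: DRM1 0.14 (normexp), 0.046 (quantile), 0.066 (median), 0.064 (authors' values) and 0.11 (mock alone), ROS1 -0.069 (mean of probes), -0.39 (other probe), -0.031 (without ago2c, and with slide as block) and -0.37 (array group), MET1 -0.064 (without ago2c, and slide), -0.18 (array group) and -0.037 (mock alone), DML3 -0.059 (without ago2c, and slide), -0.48 (array group) and -0.076 (mock alone), and with the array group as block CMT3 -0.050, CMT2 -0.19, DME -0.35, DML2 -0.087 and DDM1 -0.027, and DDM1 -0.11 with mock arrays alone. Response difference: DRM1 0.066 (quantile) and ROS1 -0.032 (other probe). With single lines left out, irradiation values ran from -0.21 to 0.0067 for CMT2, from -0.075 to 0.27 for ROS1, from -0.027 to 0.45 for DME and from -0.19 to 0.27 for DML3, and genotype values from -0.064 to 0.25 for MET1, from -0.031 to 0.53 for ROS1 and from -0.059 to 0.52 for DML3. The cause was not tested.

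Between settings the calls over all loci moved by more than 1.5 times. Irradiation gave 45 higher and 3 lower, against 1 and 0 with no filter, 0 and 0 without ago2a, 141 and 950 without WT, and 60 and 34 under normexp. The response difference gave 0 and 0, against 101 and 535 under median scaling, 101 and 539 with the authors' values, 22 and 535 under normexp and 3 and 209 with a trended prior. Signals near background limit DRM1 in mock seedlings, and single arrays per condition limit all values.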
